A study of Arabidopsis thaliana with 2 samples.

Results

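The genes described here encode the core of the DNA replication machinery of Arabidopsis thaliana. They are the MCM2 to MCM7 subunits of the replicative helicase, the sliding clamps PCNA1 and PCNA2, and the ribonucleotide reductase subunits TSO2 and RNR1. They were chosen by locus identifier, 10 in all, and the deposited table listed reads for each of the 10 among 22937 loci. The series held 1 library from root tips of atphb3, a mutant named for PROHIBITIN 3 (PHB3), and 1 library from root tips of the wild-type accession Col. The labels do not name the lesion of the mutant. Seeds of both genotypes spent 3 days at 4 °C on Murashige and Skoog medium, and the seedlings then grew at 20 °C in days of 16 h light and 8 h night. According to the labels, tips of primary roots were sampled, with no age stated, although shoots are also mentioned in the protocol for RNA extraction. With 1 library per group there was no replicate error and no test across genotypes, so each fold carries a 95% Clopper-Pearson (exact binomial) interval for counting error alone.

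Before S phase the MCM subunits are loaded around DNA as a ring, and the activated ring unwinds the double helix ahead of the polymerases. PCNA is a ring of identical subunits that holds DNA polymerase on its template and recruits repair and chromatin assembly proteins. Ribonucleotide reductase makes deoxyribonucleotides from ribonucleotides, with RNR1 as the large catalytic subunit and TSO2 as a small subunit that carries the radical-generating centre. Transcription of many such genes is switched on at the entry into S phase by E2F factors. In a root, dividing cells lie in the meristem at the tip.

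The library labelled atphb3 held 7384348 assigned reads and Col held 7451022. A locus with at least 50 reads in at least 1 library is called measured, and 12931 loci were. PHB3 itself had 863 reads in the library labelled atphb3 and 915 in Col, a ratio of 0.952 (0.866 to 1.05), so its level gave no check of the label, on which every direction below rests. Markers of other tissues differed between the libraries. All 6 measured genes of green tissue were 1.5-fold or more lower in the library labelled atphb3, where 18.3% of all measured loci were. Their median log2 ratio was -2.86, and RBCS1A and LHCB1.1 among them reached 50 reads only in Col. The green tissue list summed to 169 CPM (counts per 1000000 assigned reads) in the library labelled atphb3 against 703 CPM in Col. Xylem and phloem markers summed to 371 CPM against 810 CPM in Col, and root hair markers to 547 CPM against 246 CPM in Col. Of the 6 measured xylem and phloem markers, 4 were 1.5-fold or more below Col, against 18.3% of measured loci. Of the 7 root hair markers, 6 were 1.5-fold or more above Col, against 22.0%. RSL4, the remaining root hair marker, had 72 reads in the library labelled atphb3 and 81 in Col. RBCS1A, the small Rubisco subunit that defines green tissue, had 19 reads in the library labelled atphb3 and 179 in Col. Of the 7 root tip markers, PLT1, PLT2, SCR and SHR had at least 65 reads in each library. In Col, PLT3 had 27 reads and WOX5 had 24, and RGF1 had 2 reads in the library labelled atphb3 and 1 in Col. Root tip markers summed to 278 CPM in the library labelled atphb3 against 133 CPM in Col. Fewer cells of a type and less RNA per cell cannot be told apart in such bulk samples, and the part of tissue composition in the values below was not tested.

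Of the 10 genes, 7 were measured, and all 7 were higher in the library labelled atphb3. Of the 7, TSO2 alone was 2-fold or more above Col, where 9.74% of all measured loci were, and 0 were 2-fold or more below it, where 10.1% were. Limits of 1.5-fold were passed by 6 of the 7 in the higher direction, against 22.0% of all measured loci, and by 0 of the 7 in the lower direction, against 18.3%. When TMM factors set the scale, 5 of the 7 passed it, against 19.2% of measured loci, and likewise 5 when the totals left out the 10 deepest loci, against 19%, since MCM6 then had a log2 ratio of 0.58. The counting interval lay wholly above 1 in 7 of 7, against 37.7% of measured loci, wholly above 1.5 in 2 of 7, TSO2 and RNR1, against 12.4%, and wholly above 2 in 1 of 7, TSO2, against 5.34%. These intervals used column totals as the scale. That of PCNA2 began at a log2 ratio of 0.07, under the median of 0.08 over all measured loci. A log2 ratio above 0 was seen in 54.6% of all measured loci. The median log2 ratio of the 7 measured genes was 0.74, against 0.08 over all measured loci, whose quartiles lay at -0.39 and 0.52. The remaining members, MCM2, MCM5 and MCM7, had between 0 and 12 reads per library and were too shallow for a direction. Without TSO2 the median of the other 6 measured genes was 0.72. Log2 ratios of single genes were taken after adding 0.5 reads to each count, and ratios were taken without this addition.

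**Figure D1:**
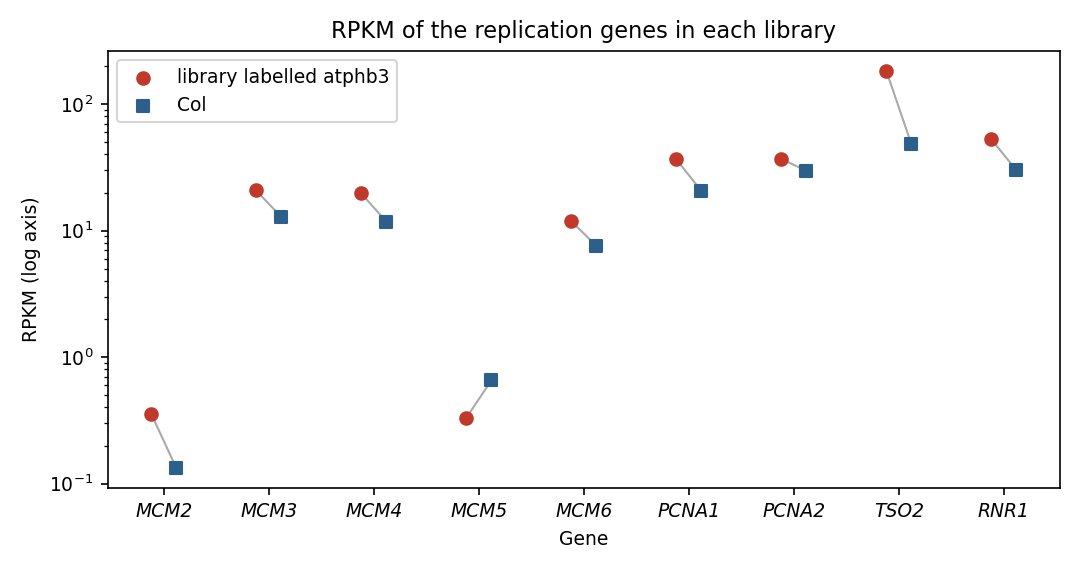
RPKM (length-scaled read level, the authors' values, log axis) of 9 members in the library labelled atphb3 (circles) and in Col (squares), 1 library each; MCM7 is left out because it had 0 reads in Col. The 7 measured genes lie between 7.58 and 184 RPKM and are higher in the library labelled atphb3, while MCM2 and MCM5 lie below 1 RPKM.

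MCM3, MCM4 and MCM6 were the measured subunits of the helicase. MCM3 (AT5G46280, chromosome 5, 18769697 to 18773658, minus strand) had 398 reads in the library labelled atphb3, or 53.9 CPM, and 247 reads in Col, or 33.1 CPM. Its ratio was 1.63 (1.38 to 1.91). MCM4 (AT2G16440, chromosome 2, 7126357 to 7130685, minus strand) had 400 reads, or 54.2 CPM, in the library labelled atphb3 and 241 reads, or 32.3 CPM, in Col. Its ratio was 1.67 (1.42 to 1.97), nearly that of MCM3. MCM6 (AT5G44635, chromosome 5, 18006431 to 18010542, minus strand) had 219 reads, or 29.7 CPM, in the library labelled atphb3 and 141 reads, or 18.9 CPM, in Col, a ratio of 1.57 (1.26 to 1.95). The 3 subunits thus differed between the libraries by like factors, with each interval wholly above 1 and wholly below 2. Positions follow the deposited table, which names no genome build.

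The proportions among these 3 subunits were close in both libraries. MCM4 gave 50.1% of the summed MCM4 and MCM3 reads in the library labelled atphb3 (46.6% to 53.7%) and 49.4% in Col (44.9% to 53.9%). The ratio of atphb3 over Col for MCM4 was 1.03 times that for MCM3, with an interval of 0.817 to 1.3. MCM4 against MCM6 gave 1.07 (0.812 to 1.4) and MCM3 against MCM6 gave 1.04 (0.789 to 1.36). Each of the 3 intervals includes 1, and the read depth leaves differences inside them undetected. Per length, MCM6 was the lowest of the 3, at 11.9 RPKM in the library labelled atphb3 and 7.58 RPKM in Col. MCM3 stood at 20.8 RPKM and 12.8 RPKM in Col, and MCM4 at 19.7 RPKM and 11.8 RPKM in Col. Both MCM3 and MCM4 were thus more than 1.5 times as high per length as MCM6 in each library.

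MCM2, MCM5 and MCM7 had almost no assigned reads. MCM2 (AT1G44900, chromosome 1, 16970259 to 16974641, plus strand) had 8 reads in the library labelled atphb3 and 3 in Col, a ratio of 2.69 (0.646 to 15.7). MCM5 (AT2G07690, chromosome 2, 3523163 to 3527450, minus strand) had 6 reads in the library labelled atphb3 and 12 in Col, a ratio of 0.505 (0.155 to 1.45). MCM7, also called PROLIFERA (AT4G02060, chromosome 4, 900636 to 905591, plus strand), had 2 reads in the library labelled atphb3 and 0 in Col, under the floor of 3 counts per library in both, so no fold is given. Per length MCM2 reached 0.358 RPKM in the library labelled atphb3 and 0.133 RPKM in Col, and MCM5 0.330 RPKM and 0.654 RPKM in Col. These values lie far below those of MCM3, MCM4 and MCM6, with which the proteins form the helicase.

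The shallow subunits share a property of the annotation. In RefSeq, MCM2, MCM5 and MCM7 each have 2 transcripts. The deposited table listed 2 transcripts of MCM7, but 1 each of MCM2 and MCM5, as for the measured members. Of the 5 members with 1 RefSeq transcript, all 5 were measured, and of the 5 with several, 2 were, namely MCM3 with 4 and MCM6 with 2. Across these genes and 68 further replication genes, 31 of the 32 loci with reads and 1 RefSeq transcript were measured, against 15 of the 42 with reads and several. Over the whole table the median was 121 reads in the library labelled atphb3 and 118 in Col for loci with 1 RefSeq transcript, against 31 reads in the library labelled atphb3 and 32 in Col for loci with several. The authors' handling of reads shared by several transcripts is not stated in the labels or headers. Its part in the low counts of MCM2, MCM5 and MCM7 was not tested, and their levels are uncertain. MCM7 also overlaps STP7 on the opposite strand by 235 bases, and the protocols name no strand-marking kit.

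PCNA1 and PCNA2 encode nearly the same clamp, and their levels differed to unequal degrees. PCNA1 (AT1G07370, chromosome 1, 2263140 to 2264551, plus strand) had 277 reads, or 37.5 CPM, in the library labelled atphb3 and 157 reads, or 21.1 CPM, in Col. Its ratio was 1.78 (1.46 to 2.18). PCNA2 (AT2G29570, chromosome 2, 12649906 to 12651703, minus strand) had 309 reads, or 41.8 CPM, in the library labelled atphb3 and 251 reads, or 33.7 CPM, in Col. Its ratio of 1.24 (1.05 to 1.47) was the smallest of the measured members and the only one under 1.5. Per length the clamps were alike in the library labelled atphb3, with 36.6 RPKM for PCNA1 and 36.9 RPKM for PCNA2, whereas in Col PCNA1 stood at 20.6 RPKM and PCNA2 at 29.7 RPKM. PCNA1 gave 47.3% of the summed PCNA reads in the library labelled atphb3 (43.2% to 51.4%) and 38.5% in Col (33.7% to 43.4%). The ratio of PCNA1 was 1.43 times that of PCNA2 (1.1 to 1.87). Their coding sequences in RefSeq are 85.6% identical over 792 aligned bases. The longest run they share is 41 bases, and they share 0 windows of 50 bases. Coding reads could thus fit either gene only if at most 41 bases long or placed with mismatches.

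Ribonucleotide reductase showed the largest difference of the 3 groups, which rested on TSO2, and its subunits differed unequally. TSO2 (AT3G27060, chromosome 3, 9979866 to 9981295, minus strand) had 1828 reads, or 248 CPM, in the library labelled atphb3 and 481 reads, or 64.6 CPM, in Col. Its log2 ratio of 1.94 (1.79 to 2.09) ranked 325th among the 12931 measured loci, so that 2.51% of them were as high or higher. RNR1 (AT2G21790, chromosome 2, 9293270 to 9297842, plus strand) had 1157 reads, or 157 CPM, in the library labelled atphb3 and 664 reads, or 89.1 CPM, in Col. Its ratio was 1.76 (1.60 to 1.94), close to those of PCNA1 and of the measured MCM subunits. TSO2 was the highest member per length in both libraries, at 184 RPKM in the library labelled atphb3 and 48.1 RPKM in Col. RNR1 followed with 52.7 RPKM in the library labelled atphb3 and 30 RPKM in Col.

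The balance of reads between the subunits of ribonucleotide reductase differed as well. TSO2 gave 61.2% of the summed TSO2 and RNR1 reads in the library labelled atphb3 (59.5% to 63.0%) and 42.0% in Col (39.1% to 44.9%). Per length TSO2 was 3.50 times as high as RNR1 in the library labelled atphb3 and 1.60 times as high in Col. RNR2A, a second gene for the small subunit, had 255 reads in the library labelled atphb3 and 190 in Col, a ratio of 1.35 (1.12 to 1.64). Among reads of the small subunit genes TSO2 and RNR2A, TSO2 gave 87.8% in the library labelled atphb3 (86.3% to 89.1%) and 71.7% in Col (68.1% to 75.1%). The ratio of TSO2 was 2.83 times that of RNR2A (2.27 to 3.52) and 2.18 times that of RNR1 (1.89 to 2.51). The coding sequences of TSO2 and RNR2A are 65.1% identical and share no run longer than 13 bases. RNR2B, annotated in the deposited table as a pseudogene of the small subunit, had 8 reads in the library labelled atphb3 and 20 in Col.

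**Figure D2:**
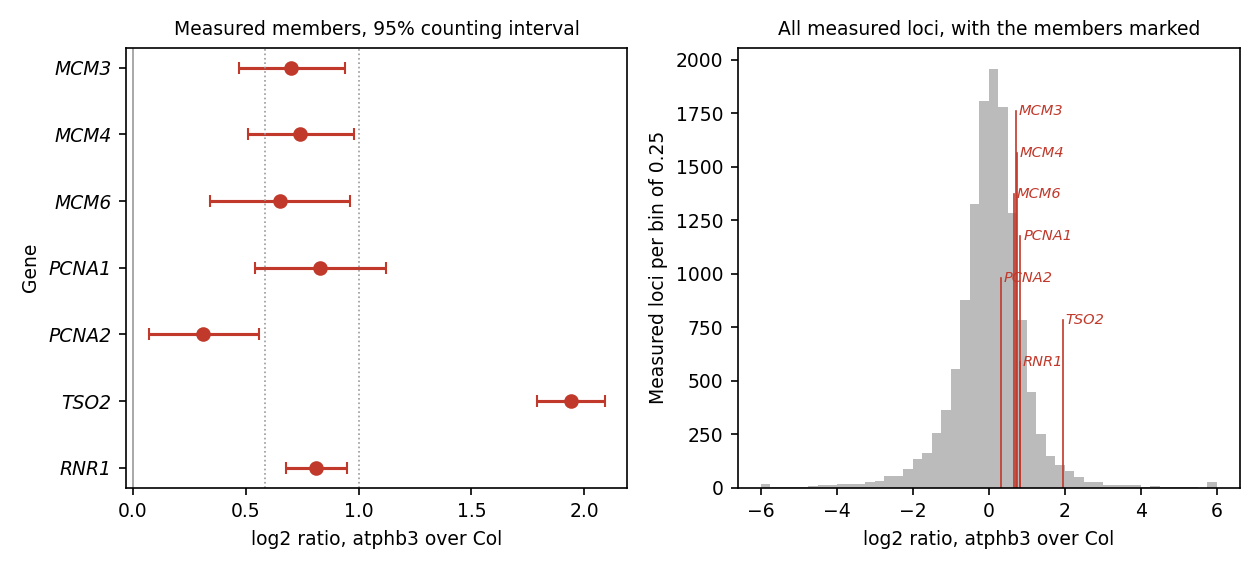
Left, log2 ratio of atphb3 over Col for the 7 measured members, with bars for the 95% counting interval and dotted lines at 1.5-fold and 2-fold; right, the number of measured loci per bin of log2 ratio, with values beyond 6 put in the outermost bins and the members marked by vertical lines whose height carries no value. TSO2 at 1.94 stands apart from the other 6, which lie between 0.31 and 0.83.

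**Figure D3:**
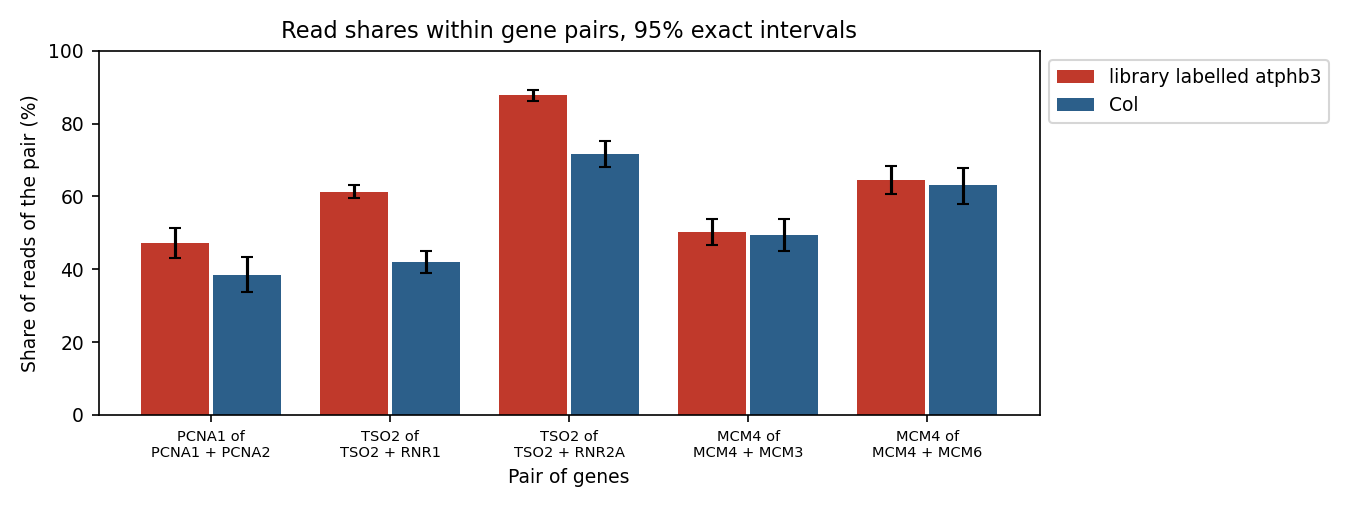
Share of reads (percent) of the first gene in 5 pairs, in the library labelled atphb3 (left bars) and in Col (right bars), with 95% exact binomial intervals. The shares of PCNA1 and TSO2 are higher in the library labelled atphb3, whereas MCM4 gave 50.1% against 49.4% in Col beside MCM3 and 64.6% against 63.1% in Col beside MCM6.

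The promoters of these genes were searched because E2F factors bind a known motif at S phase genes. The window ran from 250 bases before to 50 bases after the RefSeq gene start in the TAIR10.1 build, and both strands were searched for TTTCCCGC, TTTCGCGC, TTTGCCGC and TTTGGCGC. A match was found in 6 of the 10 windows, against 1.76% of 27443 promoters of nuclear protein-coding genes. The 6 were MCM2, MCM3, MCM4, MCM5, MCM6 and RNR1, with 1 match each. The stretches that hold the matches are shown 5′ to 3′ on the strand of the gene, because they let the letters and their surroundings be compared between subunits, and capitals mark the match.
MCM2 (chr1:16970189-16970218, plus strand): tggcgccaataTTTCCCGCctaatcgacga
MCM3 (chr5:18773858-18773887, minus strand): ggaaatcaaacGCGCCAAAcaagcgcgtag
MCM4 (chr2:7130746-7130775, minus strand): cagtaataatgGCGCCAAAatcaagtgaag
MCM5 (chr2:3527501-3527530, minus strand): cggcccatcagTTTCCCGCcacattgttcc
MCM6 (chr5:18010695-18010724, minus strand): tatactttttaGCGGGAAAatgttagagga
RNR1 (chr2:9293260-9293289, plus strand): cctagaagctgGCGGGAAAatcccaaaact
MCM2 and MCM5 carry TTTCCCGC on the strand of the gene, MCM6 and RNR1 carry it on the other strand, and MCM3 and MCM4 carry TTTGGCGC on the other strand. In MCM2, MCM4, MCM5 and MCM6 the match begins 14 to 46 bases before the start, in MCM3 170 bases before it, and in RNR1 at base 11 of the transcribed region.

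A second motif, site II (TGGGCC or TGGGCT), has been described in promoters of PCNA and other genes of growing cells. It was found in 7 of the 10 windows, against 21.7% of all promoters, and no E2F match of these genes overlapped one. Upstream of MCM6, 3 site II matches precede the E2F match, and PCNA2 has 2 site II matches and no E2F match. The stretches with every match upstream of MCM4, MCM6 and PCNA2 are shown with the matches in capitals, since they give the order of both motifs.
MCM4 (chr2:7130752-7130808, minus strand): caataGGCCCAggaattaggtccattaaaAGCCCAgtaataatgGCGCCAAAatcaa
MCM6 (chr5:18010701-18010774, minus strand): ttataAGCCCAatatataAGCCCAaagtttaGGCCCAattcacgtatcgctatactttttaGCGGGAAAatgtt
PCNA2 (chr2:12651853-12651886, minus strand): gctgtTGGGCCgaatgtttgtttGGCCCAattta
MCM7, PCNA1 and TSO2 held neither motif in this window, which says only that these letters are not there. TSO2, which had the largest ratio, and PCNA1, with a larger one than PCNA2, were among these. Among the members measured, the 4 with an E2F match had a median log2 ratio of 0.72 and the 3 without one 0.83. Over all loci with a promoter window, the 216 measured loci with an E2F match had a median log2 ratio of 0.24, and 22.7% of them were 1.5-fold or more above Col. The 12490 without one had a median of 0.07, and 21.8% of them were 1.5-fold or more above Col. Without the members and the other replication genes, the 202 measured loci with a match had a median of 0.16. Among the other replication genes the values ran the opposite way, with a median of 0.37 and 2 of 10 past 1.5-fold upward for those with a match, and a median of 0.59 and 15 of 29 for those without.

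**Figure D4:**
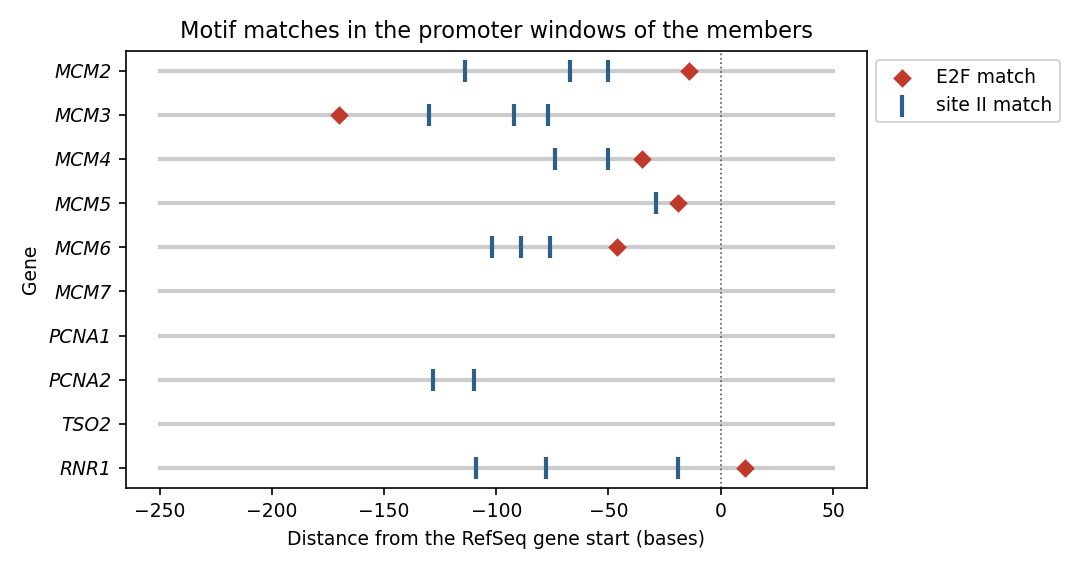
Positions of E2F matches (diamonds) and site II matches (vertical bars) in the promoter windows of the 10 members, as distance in bases from the RefSeq gene start (dotted line). 6 genes hold an E2F match and 7 hold site II, whereas MCM7, PCNA1 and TSO2 hold neither.

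Among the other genes of DNA replication, 34 of the 39 measured had a log2 ratio above 0, against 54.6% of all measured loci. The lists held 68 genes, and 17 of the 39 measured were 1.5-fold or more above Col, 1 was 1.5-fold or more below Col and 21 lay within 1.5-fold. The background was 22.0% of measured loci in the higher direction and 18.3% in the lower. The 2-fold limit was passed upward by 4 of the 39, where 9.74% of all measured loci passed it. Their median log2 ratio was 0.52, against 0.08 over all measured loci. The genes nearest to the members' median of 0.74 were RPA1C at 0.74, THY2 at 0.75 and CDT1B at 0.71, a likeness that rests on a single ratio of 2 libraries per gene.

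Genes that mark origins and load the helicase came first in the pathway. In the origin recognition complex, 2 of 4 measured subunits were 1.5-fold or more above Col, where 22.0% of all measured loci were. ORC1B, the subunit gene linked to dividing cells, had 164 reads in the library labelled atphb3 and 72 in Col, a ratio of 2.30 (1.73 to 3.08). ORC6 had 122 reads in the library labelled atphb3 and 64 in Col, a ratio of 1.92 (1.41 to 2.65). Among loading and activating factors, 4 of 7 measured genes were 1.5-fold or more above Col, against the same 22.0%, and 3 lay within 1.5-fold. CDT1A and CDT1B, which bring the MCM ring to origins, had log2 ratios of 0.82 (0.55 to 1.08) and 0.71 (0.25 to 1.20). ETG1, an MCM-binding protein, stood at 0.66 (0.31 to 1.02), and MCM10, which acts as the helicase starts, at 0.59 (0.18 to 1.02). CDC45, part of the active helicase, had 65 reads in the library labelled atphb3 and 62 in Col, and PSF1 of the GINS complex had 100 in each. MCM8 and MCM9 are relatives that are not part of the ring, and MCM8 had 54 reads in the library labelled atphb3 and 53 in Col. MCM9 had 58 reads in the library labelled atphb3 and 89 in Col, a log2 ratio of -0.60 (-1.11 to -0.11), and was the only measured gene of these lists 1.5-fold or more below Col.

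Polymerases and the proteins around the fork differed to unequal degrees. All 7 measured polymerase subunits had a log2 ratio above 0, against 54.6% of all measured loci. Of these, 3 were 1.5-fold or more above Col, against 22.0% of all measured loci. POLA4, of the primase, had 154 reads in the library labelled atphb3 and 77 in Col, a ratio of 2.02 (1.53 to 2.69). POLA2 of polymerase alpha had a log2 ratio of 0.78 (0.49 to 1.08), and POL2A, the catalytic subunit of polymerase epsilon, of 0.68 (0.50 to 0.87). Of the 5 measured genes for the clamp loader and the joining of Okazaki fragments, 3 had a log2 ratio above 0 and 1 was 1.5-fold or more above Col. Both counts lay near the shares of all measured loci. The gene past 1.5-fold was RFC2, a clamp loader subunit, at 0.60 (0.27 to 0.95). RFC1, the large subunit of the loader that places PCNA on DNA, had 556 reads in the library labelled atphb3 and 580 in Col. Another loader subunit, AT5G27740, had 369 reads in the library labelled atphb3 and 396 in Col. Of the single-stranded DNA binding complex RPA, 3 of 5 measured subunits were 1.5-fold or more above Col, against the same 22.0%. RPA1E, a large subunit linked to DNA repair, had 153 reads in the library labelled atphb3 and 57 in Col, a ratio of 2.71 (1.99 to 3.74). RPA1C, also linked to repair, and RPA3B had log2 ratios of 0.74 (0.41 to 1.08) and 0.63 (0.20 to 1.06).

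The other genes of deoxyribonucleotide supply stood beside TSO2 and RNR1. Of 6 measured, 4 were 1.5-fold or more above Col, where 22.0% of all measured loci were, and 2, RNR2A and THY1, lay within 1.5-fold. TK1A, a thymidine kinase, had 277 reads in the library labelled atphb3 and 127 in Col, a ratio of 2.20 (1.78 to 2.74). DUT1, which removes dUTP, had a log2 ratio of 0.95 (0.66 to 1.25), and TK1B, the other thymidine kinase, one of 0.69 (0.28 to 1.11). THY2 and THY1 both make thymidylate. THY2 had 288 reads in the library labelled atphb3 and 173 in Col, while THY1 had 405 and 425 in Col, so that THY2 gave 41.6% of their reads in the library labelled atphb3 (37.9% to 45.3%) and 28.9% in Col (25.3% to 32.7%). The ratio of THY2 was 1.75 times that of THY1 (1.38 to 2.22).

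The regulators of S phase entry were mostly too shallow to measure. Of 9 listed E2F, DP, DEL and retinoblastoma genes, 8 had reads and 1 was measured. RBR1, the retinoblastoma protein that holds E2F factors in check, had 23 reads in the library labelled atphb3 and 10 in Col. E2FB had 6 reads in the library labelled atphb3 and 11 in Col, E2FC had 7 and 4 in Col, and E2FA was not listed. DEL3, an atypical E2F and the measured gene, had 104 reads in the library labelled atphb3 and 81 in Col, a log2 ratio of 0.37 (-0.06 to 0.81). Of the chromatin assembly genes, MSI1 had a log2 ratio of 0.53 (0.35 to 0.72) and EOL1, a relative of the fork protein CTF4, one of 0.36 (0.12 to 0.61), and neither reached 1.5-fold.

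Markers of mitosis and of the meristem are given beside these values. Of 17 measured mitotic genes, 2 were 1.5-fold or more above Col, where 22.0% of all measured loci were, and 15 lay within that limit. A log2 ratio above 0 was seen in 14 of the 17, against 54.6% of all measured loci. The median log2 ratio of the 17 was 0.31, against 0.08 over all measured loci. The mitotic list summed to 422 CPM in the library labelled atphb3 and 353 CPM in Col, and the 10 replication genes summed to 623 CPM and 295 CPM in Col, or 376 CPM and 230 CPM in Col without TSO2. CDC20.1 and CYCB1;1 were the mitotic genes past 1.5-fold, with CYCB1;1 at 192 reads in the library labelled atphb3 and 70 in Col. KNOLLE, the syntaxin of the division plane, had 268 reads in the library labelled atphb3 and 313 in Col. All 6 measured meristem regulators were 1.5-fold or more above Col, against the same 22.0% of measured loci. Their median log2 ratio of 1.20 lay above the 0.74 of the replication genes. Among the 6, WOX5 and PLT3 reached the read minimum only in the library labelled atphb3, so the filter itself favoured higher values there. The list was also chosen with earlier results of these data known, so the count and the median only describe these genes. WOX5, which marks the quiescent centre, had 82 reads in the library labelled atphb3 and 24 in Col. PLT1 had 209 reads in the library labelled atphb3 and 80 in Col. The list of 7 meristem genes summed to 278 CPM in the library labelled atphb3 and 133 CPM in Col, and the part of such differences in the replication genes was not tested.

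**Figure D5:**
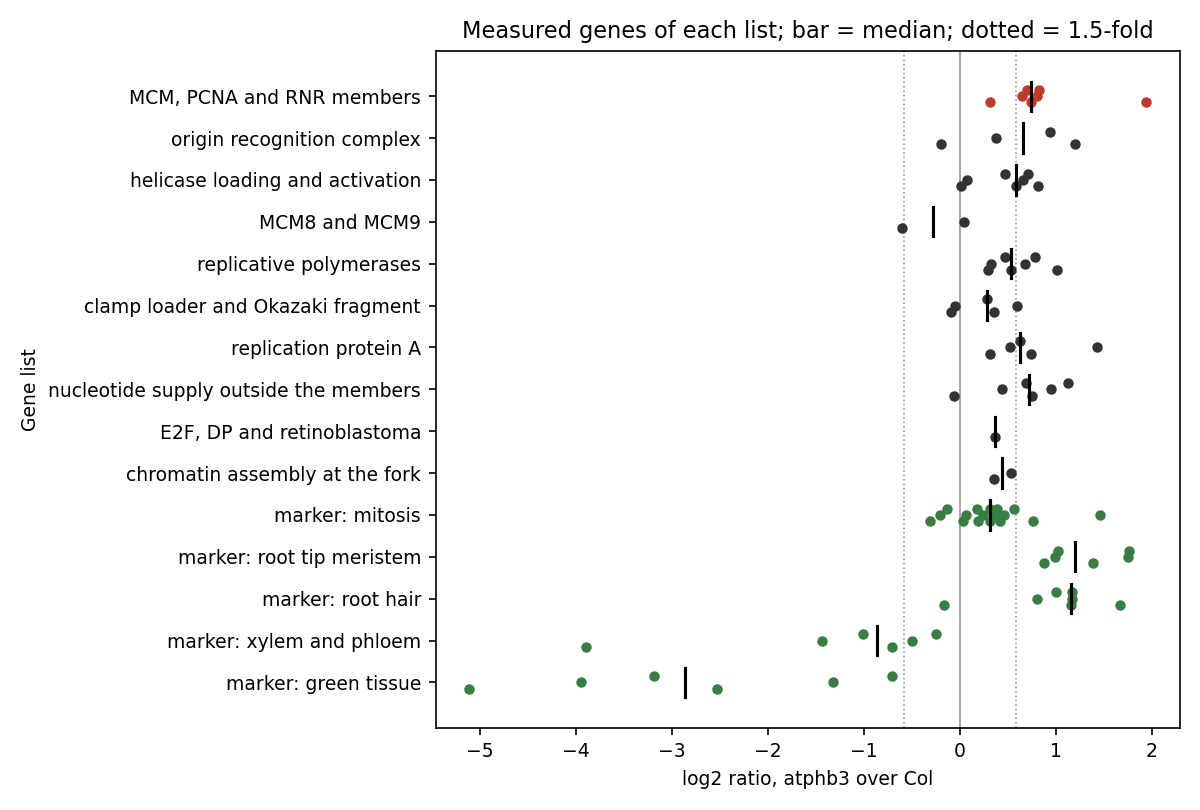
Log2 ratio of atphb3 over Col for each measured gene (points) of the 7 members, the pathway lists and the marker lists, with the median as a vertical bar and dotted lines at 1.5-fold. The members have a median of 0.74, mitotic genes one of 0.31 and meristem genes one of 1.20, while green tissue genes lie at -0.71 or below.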

How the data were processed

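Root tip RNA was reverse transcribed from random primers and read on an Illumina machine, per the labels' protocols. Per the file headers, the authors deposited a whole read count and an RPKM value per transcript and library, a log2 ratio, and p-values with their adjusted form. The values showed that RPKM is the count divided by transcript length (bases, another deposited column) and by the column total. The authors' p-values rest on single libraries and are left out here. Aligner, counter and build are not given in the sources used here. Counts were summed to locus and scaled to the column total, and the code for ratios and intervals was checked on simulated Poisson counts. With 3 reads a gene reached 0.406 CPM in the library labelled atphb3 and 0.403 CPM in Col. Reads carry no molecular identifiers. Members and lists were chosen with earlier results of these data known. Named were all members, in each pathway list the measured genes at least 1.5-fold apart (at most 4 per direction, or else the 2 deepest), the 3 nearest to the members' median, and markers. CDC45, PSF1, MCM8, RFC1, AT5G27740, RNR2A, RNR2B, THY1, RBR1, E2FB and E2FC were named after their values were seen. All 128 loci matched RefSeq (TAIR10.1), and the deposited spans of all 10 members lay inside the RefSeq locus. Promoters and coding sequences were read from RefSeq with its own coordinates. Python 3.11.15, scipy 1.17.1, Biopython 1.88, R 4.3.3, edgeR 4.0.16 (TMM) and DESeq2 1.42.0 (size factors) were used. Alternatives were other scalings, the authors' RPKM, 2 reads added, other read minimums, loci with 1 listed transcript, and whole intervals past the limit.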

Additional observations from a re-analysis of the deposited data

How the results depend on the processing

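Each of the 60 values of single members under the 6 other scalings, RPKM values or pseudocounts stayed inside that member's counting interval. This was largely fixed beforehand and says little of robustness. A scaling shifts all genes by a common small factor, RPKM rests on the same counts, and the interval of MCM7 has no upper end. The log2 ratio of TSO2 ranged from 1.87 to 1.94 and that of PCNA2 from 0.24 to 0.31, and the members' median over 10 alternatives from 0.67 to 0.78. With no filter on reads, 3 of 10 members were 2-fold or more above Col, against 15.9% of all loci, the added ones being MCM2 and MCM7 on 0 to 8 reads. In that setting 28 of 65 replication genes outside the members passed 1.5-fold upward, against 26.8% of all loci. Whole intervals lay above 1.5-fold for 2 of the 7 measured members, TSO2 and RNR1. They did so for 5 of the 39 measured replication genes outside the members, near the 12.4% of all measured loci. With at least 200 reads, 7 of 19 such genes passed 1.5-fold upward, against 21.3% of loci. No paired analysis was possible because each group held 1 library. Low read numbers limit MCM2, MCM5, MCM7 and the E2F genes.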
